A study of Mus musculus with 18 samples.

Results

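Nuclear genes of oxidative phosphorylation were followed through the first day of B cell stimulation, separately on each parental allele. Members were the genes whose symbol begins with Nduf, Uqcr, Sdh, Atp5 or Cox and a digit, with pseudogene names ending in -ps left out (0 such names were found). The rule found 102 members among 30559 named genes. They divide into 36 genes of complex I, 4 of complex II, 8 of complex III, 19 of complex IV, 14 of complex V and 21 assembly factors, and 3 members lie on the X chromosome. All 102 had a row in the 129 tables. The Cast tables had rows for 101, without one named Atp5h.

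The cells were CD23+ B cells from the spleens of female mice of genotype F1 129S1/Cast; Xist+/-. All samples carried that genotype, in which, per the labels, the X chromosome of Cast origin is the inactive one. The naive group (3 samples) received no treatment and the stimulated group (3 samples) received 1 µM CpG in vitro for 24 h. CpG is an oligonucleotide that activates B cells through Toll-like receptor 9. Mouse age and the number of animals behind a sample are not given in the labels, so p-values measure the spread between samples of one group. The other 12 of 18 samples in the series are not analysed here.

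As background, complexes I and II pass electrons from NADH and succinate to ubiquinone, complex III passes them on to cytochrome c, and complex IV passes them to oxygen. Complexes I, III and IV pump protons across the inner mitochondrial membrane, and complex V, the ATP synthase, uses the gradient to make ATP. Most subunits are encoded in the nucleus and joined to a few encoded by mitochondrial DNA with the help of assembly factors. Lymphocytes enlarge their mitochondrial mass and metabolic activity when they are activated.

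The promoters of 6 members are shown, chosen after their values were seen, as examples of genes that rose (Ndufaf4, Uqcr11, Cox10), fell (Ndufa7), differed between alleles (Atp5sl) or lie on the X chromosome (Ndufb11). Each run is the 250 bases before the RefSeq start site on the gene's strand (GRCm38.p6, a reference sequence and not that of either parental strain). Capitals mark every match, wholly within the run, to a motif searched on both strands. Ndufaf4 lies at chr4:24897833-24898082 (+) and holds the NRF1 core GCGCATGC. Uqcr11 at chr10:80406822-80407071 (-) and Cox10 at chr11:64079473-64079722 (-) hold the ETS core CCGGAAGT. Cox10 also holds the TATA box letters TATAAA, but on the strand opposite to the gene (printed as TTTATA). Ndufa7 at chr17:33824322-33824571 (+) holds an E-box (CACGTG) and, again on the opposite strand, TATAAA. Atp5sl, listed in RefSeq as Dmac2, lies at chr7:25619164-25619413 (+) and holds an E-box. An NRF1 core of Uqcr11 runs across the end of the printed part. Past that end lie another NRF1 core of Ndufaf4 and the YY1 core AAGATGGCG of Cox10 and of Atp5sl. Ndufb11 at chrX:20617620-20617869 (-) holds none of the 5 motifs.
Ndufaf4: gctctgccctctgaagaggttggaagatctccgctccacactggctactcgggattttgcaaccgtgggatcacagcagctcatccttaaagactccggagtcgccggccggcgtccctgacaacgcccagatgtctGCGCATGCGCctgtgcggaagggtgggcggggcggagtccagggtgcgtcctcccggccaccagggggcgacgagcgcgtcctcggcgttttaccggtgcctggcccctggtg
Uqcr11: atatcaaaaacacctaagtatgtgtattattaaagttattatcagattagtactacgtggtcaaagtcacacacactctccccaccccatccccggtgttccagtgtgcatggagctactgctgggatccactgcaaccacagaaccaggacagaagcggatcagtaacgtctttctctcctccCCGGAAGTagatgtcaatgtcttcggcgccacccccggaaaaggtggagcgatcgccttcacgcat
Cox10: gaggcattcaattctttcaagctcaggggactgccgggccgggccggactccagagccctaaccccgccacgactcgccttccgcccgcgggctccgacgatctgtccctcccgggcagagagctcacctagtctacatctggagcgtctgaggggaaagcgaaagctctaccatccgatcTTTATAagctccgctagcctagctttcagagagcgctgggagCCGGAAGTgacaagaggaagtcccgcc
Ndufa7: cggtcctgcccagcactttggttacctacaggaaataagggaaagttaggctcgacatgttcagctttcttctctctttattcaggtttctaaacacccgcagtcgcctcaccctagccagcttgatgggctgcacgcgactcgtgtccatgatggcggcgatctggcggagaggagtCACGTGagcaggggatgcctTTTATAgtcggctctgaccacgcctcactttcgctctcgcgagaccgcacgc
Atp5sl: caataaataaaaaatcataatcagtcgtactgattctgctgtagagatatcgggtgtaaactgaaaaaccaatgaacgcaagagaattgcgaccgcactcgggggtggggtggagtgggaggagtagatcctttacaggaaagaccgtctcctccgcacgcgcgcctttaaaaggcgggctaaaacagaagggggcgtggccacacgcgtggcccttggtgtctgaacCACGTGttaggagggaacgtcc
Ndufb11: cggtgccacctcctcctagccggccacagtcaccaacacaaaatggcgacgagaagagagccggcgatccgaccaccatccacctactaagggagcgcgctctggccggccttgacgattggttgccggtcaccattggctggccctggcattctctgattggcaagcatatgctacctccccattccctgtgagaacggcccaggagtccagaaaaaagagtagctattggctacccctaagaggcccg

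A promoter was found in the RefSeq table for 85 of the 102 members. In windows of 300 bases, from 250 before the start, the NRF1 core was present in 11 members (12.9%) against 2.80% of 27025 promoters. The YY1 core AAGATGGCG was present in 8 (9.41%) against 1.49%, and the ETS core in 8 (9.41%) against 4%. E-boxes stood in 7 (8.24%) against 7.24%, and the letters TATAAA in 8 (9.41%) against 14.2%. None of these motifs contains another, and matches were counted separately even where they overlapped. These are counts of letter matches on either strand.

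A sample held 1987266 to 2928236 gene reads from the 129 strain and 2465073 to 3321753 from Cast. Xist, the gene targeted in these mice, had 586 to 922 reads from the 129 allele and 4613 to 6473 from the Cast allele in naive samples. After CpG it had 795 to 864 reads from 129 and 5661 to 6930 from Cast. Fcer2a, which encodes CD23, the protein used to isolate the cells, fell from 357 to 9.54 CPM (gene reads scaled to the size of the library) on the 129 allele, and 9 of 10 B cell markers tested fell on that allele, as did 8 of 9 on the Cast allele. Summed B cell markers ranged from 12059 to 16035 CPM in naive and from 4080 to 5643 CPM in stimulated samples on the 129 allele. Macrophage markers moved with the groups as well: 13 of 13 tested fell on each allele, and their sum went from between 3294 and 6815 CPM to between 25.9 and 35.6 CPM on the 129 allele, and from between 2696 and 5899 to between 21.6 and 30.9 on the Cast allele. Cd163 was at 0 in every stimulated sample on the 129 allele, and Axl, C1qa and Mertk were at 0 in every stimulated sample on the Cast allele. Markers near 0 after CpG passed the read filter through their naive samples, so these counts depend in part on that filter. Of all genes tested, 27% were called lower on 129 and 31.5% on Cast. The part of this macrophage signal in the results below was not tested. In such bulk samples, fewer cells of a type and less RNA per cell cannot be told apart.

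Other marker lists had smaller sums on the 129 allele. T cell markers went from 44.9 to 58.7 CPM in naive samples to 4.67 to 9.22 CPM in stimulated ones, with 2 of 3 tested lower. NK cell markers went from 12.9 to 24.9 CPM to 2.44 to 6.38 CPM, with 1 of 2 lower. Neutrophil markers went from 22.0 to 35.6 CPM to 1.42 to 3.49 CPM, with 1 of 1 lower, and dendritic cell markers from 25.3 to 58.5 CPM to 8.03 to 16.7 CPM, with 2 of 3 lower. Plasma cell markers stayed between 325 and 518 CPM and between 338 and 380 CPM, with 2 higher and 2 lower of 4. Erythroid markers ranged from 88.5 to 166 CPM and from 200.3 to 318 CPM, where Tfrc, the transferrin receptor of dividing cells, was the 1 that rose. Markers near 0 after CpG, such as Gzma (12, 16 and 18 reads, then 0, 1 and 0), passed the read filter through their naive samples. The counts of lower markers therefore depend in part on that filter. Of all genes tested on 129, 27% were called lower.

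Some allelic patterns went with the replicate number in both groups. For 8 of the 75 autosomal members that had 20 reads or more in all samples (10.7%), the Cast share of reads in 1 replicate number lay at least 20 percentage points from both other numbers in both groups, against 528 of 7784 autosomal genes (6.78%). This threshold was chosen after the values were seen. For Ndufa12, a complex I accessory subunit, the Cast share in replicates 1, 2 and 3 was 28.8%, 95.2% and 99.3% in naive cells and 31.5%, 96.4% and 95.5% after CpG. Sdhc, a membrane anchor of complex II, had Cast shares of 50.9%, 98.2% and 43.8% in naive cells and 50.1%, 98.4% and 49.9% after CpG. The other members were Atp5e, Cox6c, Ndufaf2, Ndufaf7, Sdhb and Uqcrb. Of the 10 nearest genes of that depth in GRCm38 gene order, the number with the same pattern was 5 for Cox6c, 2 each for Ndufaf7 and Sdhb, 1 each for Atp5e, Ndufa12 and Sdhc, and 0 for Ndufaf2. The neighbours of Uqcrb were not analysed here. The cause of these allelic differences between replicate numbers was not tested.

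**Figure D1:**
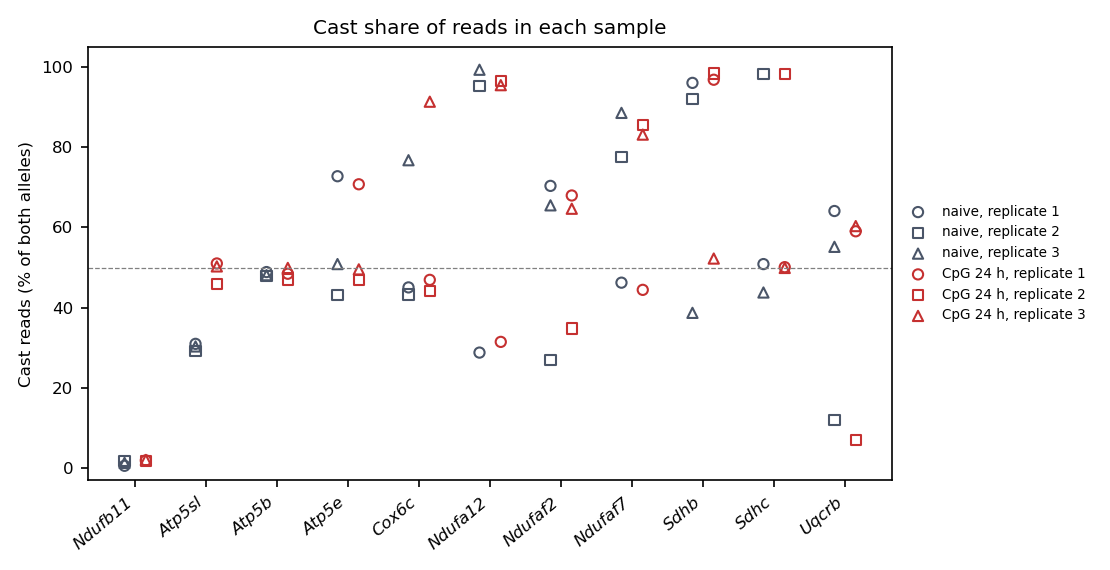
Cast reads as a percentage of both alleles in each sample (y axis) for 11 members (x axis), naive in grey and CpG in red, with the marker shape giving the replicate number. Atp5b sits near 50% in every sample and Ndufb11 below 3%, while the last 8 genes have 1 replicate number apart from the other 2 in both groups.

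Most members that could be tested were higher after CpG, on both alleles. The share of gene reads held by the members went from 0.546% ± 0.0182 (SD, n = 3) to 0.976% ± 0.0206 (n = 3) for 129, and for Cast from 0.523% ± 0.00608 to 0.986% ± 0.0412. On the 129 allele 45 of 78 members tested rose and 4 fell, at an adjusted p under 0.05 in edgeR's quasi-likelihood test with Benjamini-Hochberg adjustment over all genes. Of all 10581 genes tested there, 28.2% were called higher and 27% lower, or 55.2% in either direction. On the Cast allele 53 of 82 members rose and 3 fell, where 30.7% of 10365 genes were called higher and 31.5% lower, or 62.2% together. The median log2 fold change of tested members was 0.98 on 129 and 0.97 on Cast, beside -0.01 and -0.04 over all genes tested. With the reads of both alleles summed, 63 of 86 members rose and 5 fell, where 34.2% of 10343 genes were called higher and 34.4% lower. Members that were not tested (24 on 129, 19 on Cast) had too few reads.

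**Figure D2:**
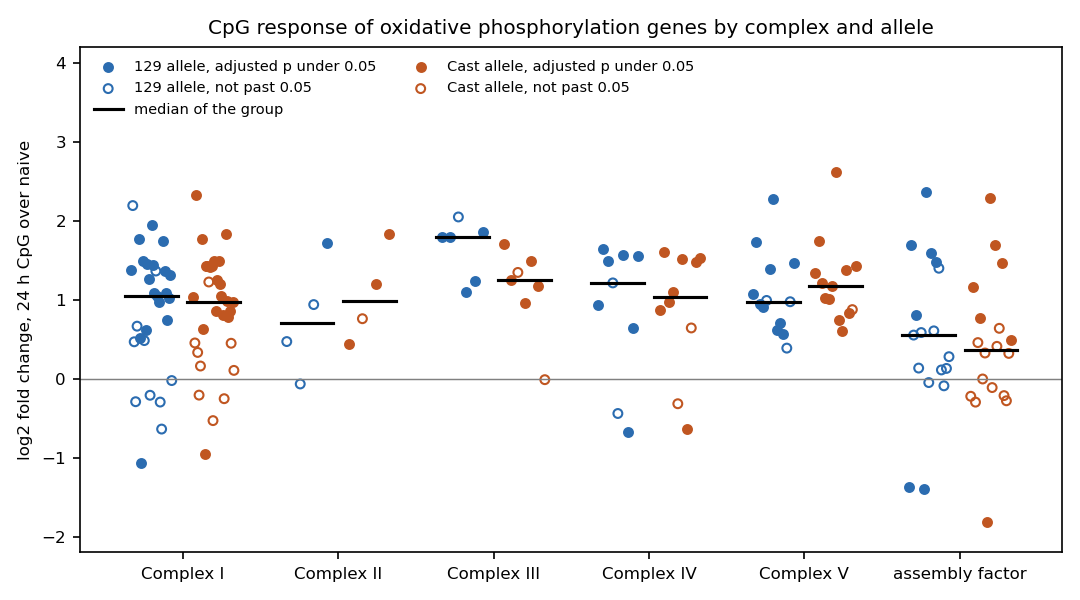
Log2 fold change after 24 h CpG (y axis) of each tested member by complex and allele (129 blue, Cast orange), filled where the adjusted p is under 0.05 and with a bar at the group median. Complexes I, III, IV and V lie mostly above 0 on both alleles, and assembly factors spread widely on both sides of it.

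Complex I, the NADH dehydrogenase, had 18 of 29 tested members higher and 1 lower on the 129 allele and 20 of 30 higher and 1 lower on Cast. Among the catalytic core subunits, 6 of 7 rose on 129 and 5 of 7 on Cast, among them Ndufs1 (log2 fold change 1.04 and 1.05) and Ndufv2 (1.31 and 0.97), which carry iron-sulfur clusters. Ndufs3 was the core subunit with no call on either allele (-0.30 and -0.25). Among accessory subunits 12 of 22 rose on 129 and 15 of 23 on Cast. Ndufb6, an accessory subunit of the membrane arm, had 26.2, 17 and 21.1 CPM in the naive samples and 74.8, 90.0 and 83.4 CPM after CpG on the 129 allele, a log2 fold change of 1.95 ± 0.20 (SE; adjusted p = 0.000154, edgeR). On the Cast allele it had 12.4, 15.2 and 17.6 CPM and then 31.2, 48.4 and 47.1 CPM (1.49 ± 0.24). The groups did not overlap on either allele. Ndufa5, a subunit of the matrix arm, went from 80.0, 58.2 and 70.7 CPM to 218, 233 and 260 CPM on 129, and its log2 fold change was 1.77 on both alleles (SE 0.15 and 0.14).

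Ndufa7, an accessory subunit of the matrix arm, went the other way. Its 129 allele had 23.7, 20.8 and 28.6 CPM in naive cells and 8.63, 11.3 and 14.7 CPM after CpG (log2 fold change -1.07 ± 0.28, adjusted p = 0.0134, edgeR). The Cast allele had 18.8, 16.2 and 24.1 CPM and then 14.2, 8.02 and 8.29 CPM (-0.95 ± 0.30, adjusted p = 0.0215). All stimulated samples lay below all naive samples, though 1 Cast value (14.2) lay close to the lowest naive one (16.2). Without naive replicate 3 the adjusted p was 0.0516 on 129 and 0.0865 on Cast, and the Cast call was also lost without naive replicate 1 (0.0515), CpG replicate 2 (0.0683) and CpG replicate 3 (0.0772), each with edgeR.

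Complex II, succinate dehydrogenase, had 1 of 4 members higher on 129 and 3 of 4 on Cast, and all 4 were higher with the alleles summed. Sdhd, a membrane anchor that helps to bind ubiquinone, had 64.1, 50.7 and 61.2 CPM and then 190, 210 and 180 CPM on the 129 allele (log2 fold change 1.72 ± 0.14). On Cast it had 96.8, 92.7 and 98.8 CPM and then 338, 356 and 334 CPM (1.83 ± 0.11), and naive and stimulated values lay far apart. The other anchor, Sdhc, had 129 values of 85.2, 2.91 and 104 CPM and then 173, 6.73 and 187 CPM, so its groups overlapped and it was not called (adjusted p = 0.611, edgeR). With a term for replicate number in the model its 129 log2 fold change was 0.95 ± 0.15 (adjusted p = 5.28e-05, edgeR). The flavoprotein Sdha had the smallest change of the 4 in the summed fit (0.48 ± 0.11) and the iron-sulfur subunit Sdhb was next (0.61 ± 0.15).

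Complex III, which hands electrons to cytochrome c, had 5 of 6 tested members higher on 129 and 5 of 7 on Cast, with none lower. Uqcrfs1, the Rieske iron-sulfur protein, had 4.30, 4.99 and 6.52 CPM and then 18.3, 15.9 and 23.0 CPM on 129 (log2 fold change 1.86 ± 0.31). On Cast it had 6.78, 5.77 and 9.88 CPM and then 17, 14.2 and 18.9 CPM (1.17 ± 0.30). Uqcr10, a small subunit, went from 50.3, 37.8 and 45.6 CPM to 135, 178 and 151 CPM on 129 (1.79 ± 0.17) and rose by 1.71 ± 0.15 on Cast. For both genes every stimulated sample was above every naive sample on each allele. The core protein Uqcrc2 rose by 1.23 and 1.49 on 129 and Cast. Uqcrb, which binds ubiquinone, was called on neither allele (2.05 and 1.35), and its Cast share in replicate 2 was apart from the others in both groups. With the replicate number in the model it rose on both, by 1.87 on 129 (adjusted p = 2.96e-05, edgeR) and 1.36 on Cast (adjusted p = 0.00234, edgeR), and it rose by 1.83 with the alleles summed (adjusted p = 0.0051, edgeR). The small subunit Uqcr11 rose by 1.79 ± 0.21 and 1.24 ± 0.37 on 129 and Cast.

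Complex IV, cytochrome c oxidase, had 6 of 9 tested members higher and 1 lower on 129, and 7 of 10 higher and 1 lower on Cast. Cox5a, a matrix-side subunit, had 24.5, 22.9 and 27.6 CPM and then 71.9, 85.4 and 76.4 CPM on 129 (log2 fold change 1.64 ± 0.16), and 17.7, 20.9 and 15.5 CPM and then 48.8, 65.1 and 50.9 CPM on Cast (1.60 ± 0.20). Ndufa4, once assigned to complex I and now counted with complex IV, rose by 1.56 ± 0.16 and 1.53 ± 0.15. Cox7a2l, which helps complexes III and IV to join into supercomplexes, fell. It had 715, 592 and 621 CPM and then 413, 450 and 349 CPM on 129 (-0.67 ± 0.14, adjusted p = 0.00427, edgeR), and 761, 692 and 747 CPM and then 426, 567 and 427 CPM on Cast (-0.63 ± 0.15). In naive cells Cox7a2l held 643 of the 1068 CPM summed over complex IV members on 129. The summed CPM of complex IV members rose 1.24-fold on 129 and 1.22-fold on Cast, against 2.45-fold and 2.42-fold for complex III and 2.45-fold and 2.50-fold for complex V.

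Several complex IV subunits come as isoforms from separate genes, and levels below are allele-assigned reads that also depend on how many strain differences a gene holds. The ubiquitous Cox4i1 rose by 0.93 ± 0.18 on 129 and 0.87 ± 0.15 on Cast, while Cox4i2 had 0 reads in all tables. Cox6a1 had 6.02, 1.25 and 4.01 CPM and then 7.19, 10.6 and 8.38 CPM on 129 (1.21 ± 0.52, adjusted p = 0.0848, edgeR) and rose on Cast (1.10 ± 0.34, adjusted p = 0.0181, edgeR; 0.0589 without naive replicate 1). With the replicate number in the model the 129 change also passed (1.26, adjusted p = 0.0481, edgeR). Its muscle counterpart Cox6a2 had 0 reads. Cox7a2 rose by 1.57 ± 0.47 on 129 from at most 42 reads per sample and by 1.52 ± 0.22 on Cast. The 129 call was lost without naive replicate 2 (adjusted p = 0.0552), CpG replicate 1 (0.0566) or CpG replicate 3 (0.0740), each with edgeR. The muscle form Cox7a1 had at most 1 read. Cox8a was too low to test on 129 (at most 12 reads) and rose on Cast from 44.1, 60.2 and 54.1 CPM to 141, 167 and 134 CPM (1.48 ± 0.16), while Cox8b and Cox8c had 0 reads. Cox6b1 had at most 17 reads and Cox6b2 at most 6 per sample and allele, so neither was tested on 1 allele alone. With the alleles summed Cox6b1 had 1.14 ± 0.54 (adjusted p = 0.0867, edgeR). Ndufa4l2 had 0 reads. A count of 0 here allows up to 3 reads per sample and does not show whether reads could be assigned to a strain at that gene, which was not tested.

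Complex V, the ATP synthase, had 10 of 13 tested members higher on 129 and 12 of 13 on Cast, with none lower, and all 13 tested were higher with the alleles summed. Its catalytic head had 4 of 5 members higher on 129 and 5 of 5 on Cast. Atp5b, the catalytic beta subunit, had 177, 175 and 179 CPM and then 554, 604 and 605 CPM on 129 (log2 fold change 1.73 ± 0.10), and 148, 140 and 142 CPM and then 456, 467 and 511 CPM on Cast (1.74 ± 0.12). Naive samples lay close together, far below all stimulated ones. In the membrane part and stalk, 6 of 8 rose on 129 and 7 of 8 on Cast.

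Atp5g1 and Atp5g3 are separate genes for the same mature c subunit of the proton-driven ring, and both rose. Atp5g1 had 28.8, 23.3 and 21.6 CPM and then 122, 125 and 110 CPM on 129 (log2 fold change 2.28 ± 0.16, a 4.84-fold rise). On Cast it had 6.03, 10.5 and 19.3 CPM and then 81.9, 66.3 and 69.8 CPM (2.62 ± 0.32, 6.16-fold). Atp5g3 had 75.7, 79.8 and 84.2 CPM and then 113, 115 and 141 CPM on 129 (0.62 ± 0.13, 1.54-fold), and rose by 0.75 ± 0.13 on Cast (1.68-fold). The difference between the genes was not tested. Atp5h, a stalk subunit present in the 129 tables, rose by 0.71 ± 0.13.

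**Figure D3:**
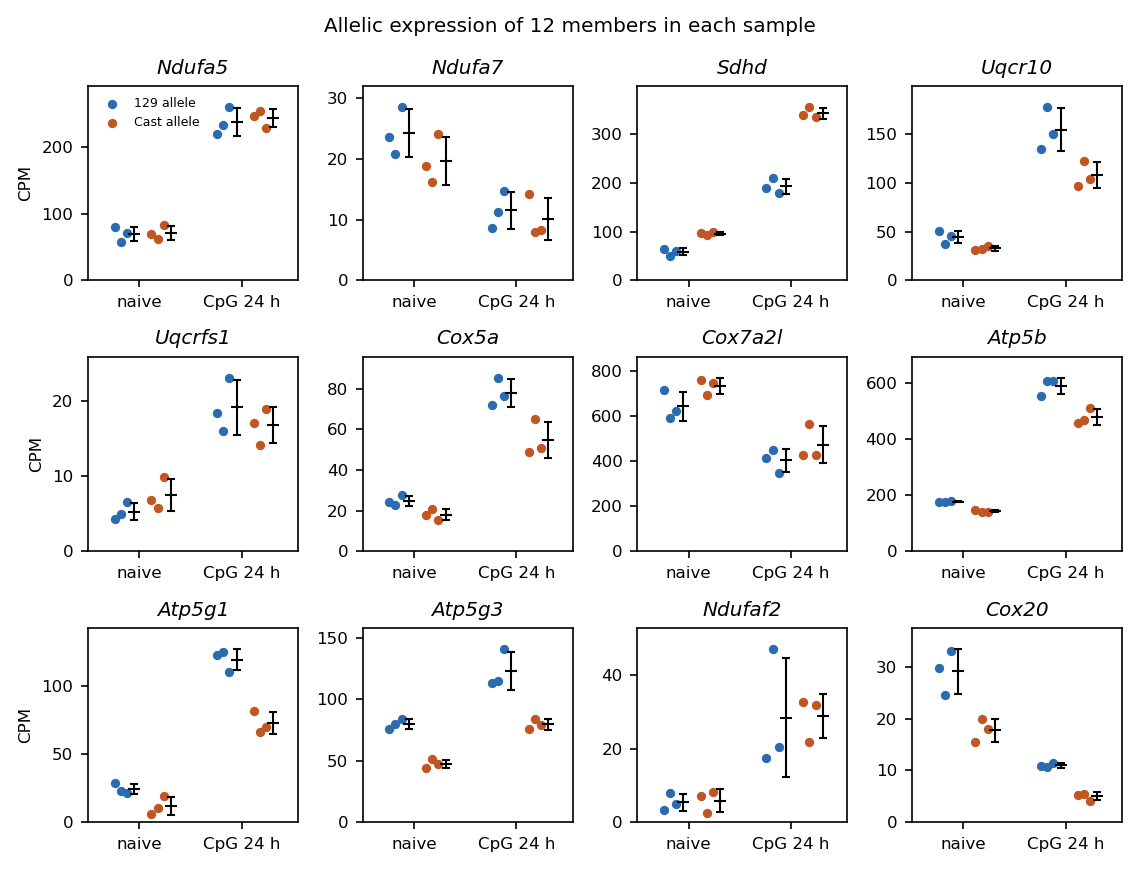
CPM (y axes, each from 0) in every sample for 12 members, naive and CpG, with 129 points in blue, Cast points in orange and bars for mean and SD (n = 3). Ndufa7, Cox7a2l and Cox20 are lower after CpG on both alleles and the other 9 are higher, with the replicate 2 sample of Ndufaf2 apart on the 129 allele.

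Assembly factors moved less uniformly. On 129, 5 of 17 tested rose and 2 fell, and on Cast 6 of 18 rose and 1 fell, so the share called higher (29.4% and 33.3%) was near that of all genes. Ndufaf2, a factor of late complex I assembly, had 3.44, 7.89 and 5.01 CPM and then 17.6, 47.1 and 20.6 CPM on 129 (log2 fold change 2.37 ± 0.50), and 7.16, 2.53 and 8.16 CPM and then 32.8, 21.9 and 32.0 CPM on Cast (2.29 ± 0.38). Replicate 2 was the highest on 129 and the lowest on Cast in both groups. Ndufaf4, also of complex I assembly, with the NRF1 core shown above, rose by 1.59 ± 0.20 and 1.69 ± 0.21. Cox10, which farnesylates heme for complex IV, had 25, 29.5 and 28.6 CPM and then 94.2, 86.1 and 89.0 CPM on 129 (1.70 ± 0.14) and rose by 1.17 ± 0.18 on Cast. Cox20, a chaperone of the mitochondrially encoded subunit Cox2, fell from 29.7, 24.5 and 33.1 CPM to 10.8, 10.6 and 11.5 CPM on 129 (-1.40 ± 0.22). On Cast it fell from 15.4, 19.8 and 18 CPM to 5.36, 5.55 and 4.14 CPM (-1.82 ± 0.28). Exons of Cox20 overlap those of Hnrnpu on the opposite strand. The strand setting of the deposited counts is not given in the sources used here, so their reads may not be told apart. The same holds for Cox10, Cox11, Cox4i1, Cox5a, Cox6c, Ndufab1, Ndufaf2, Ndufb6, Ndufb11 and Uqcrb, each of which overlaps another gene on the opposite strand.

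Most members had the same call on both alleles. Of 76 members tested on both, 40 rose on both, 3 fell on both (Ndufa7, Cox7a2l and Cox20) and 17 were called on neither. Another 5 were called on 129 alone and 11 on Cast alone, and 0 were called in opposite directions. The median absolute difference of the log2 fold changes was 0.15. The same counts were not made over all genes, so it was not tested whether this agreement differs from that of other genes. Both alleles were read in the same samples. A call on 1 allele alone does not show that the alleles differ, so the change of the Cast-to-129 ratio was tested itself.

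**Figure D4:**
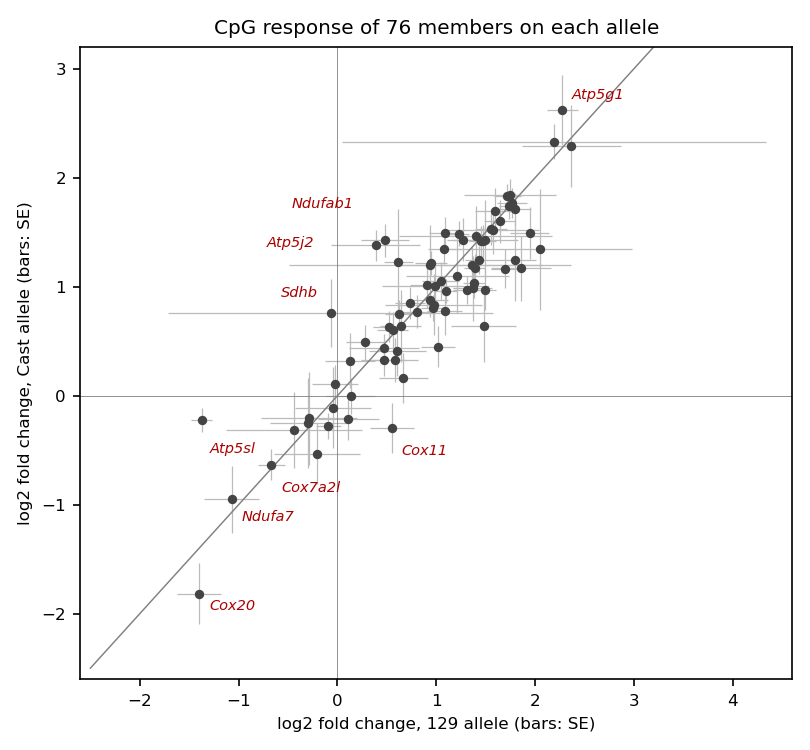
Log2 fold change of 76 members on the 129 allele (x axis) against the Cast allele (y axis), with SE bars and the line of equal change. Most points lie near the line, and Atp5sl lies above it at -1.38 on 129 and -0.22 on Cast.

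In that test 1 of 101 matched members was called, some of which had too few reads to test. That is near the 0.917% of 10364 genes called. Atp5sl, a factor of complex I assembly now named Dmac2, had 713, 779 and 634 reads and then 311, 376 and 345 reads from the 129 allele. From the Cast allele it had 320, 320 and 276 reads and then 324, 319 and 349 reads. In CPM the 129 allele fell by 1.38 on the log2 scale (SE 0.11, adjusted p = 5.43e-05, edgeR), and the Cast allele had -0.22 ± 0.11 (adjusted p = 0.111, edgeR). The Cast share went from 31.0%, 29.1% and 30.3% to 51.0%, 45.9% and 50.3%, so all 3 stimulated samples were above all naive ones. The ratio changed by 1.16 ± 0.12 on the log2 scale (adjusted p = 0.0123, edgeR). Leaving out naive replicate 1, 2 or 3, or CpG replicate 1 or 3, gave a change between 1.10 and 1.19 and adjusted p values of 0.0521 to 0.0677, and without CpG replicate 2 the adjusted p was 0.0298 (edgeR).

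With replicate number as a block, 4 of the 101 matched members were called, where some of the 101 had too few reads to test. Of all 10364 genes tested, 7.52% were called. Atp5sl kept its call (adjusted p = 3.43e-12). Ndufab1, the mitochondrial acyl carrier protein and a complex I subunit, was called (0.99 ± 0.20, adjusted p = 0.000155, edgeR, against 0.158 without the block). Its Cast allele rose from 39.6, 46.5 and 33.1 CPM to 106, 111 and 104 CPM, and its 129 allele had 46.5, 42.0 and 31.6 CPM and then 65.8, 40.4 and 61.8 CPM. Atp5j2, a membrane subunit of complex V, changed by 1.07 ± 0.28 (adjusted p = 0.0240, edgeR, against 0.498 without the block). Its Cast share went from 86.9%, 78.7% and 90.6% to 95.7%, 91.9% and 89.6%, so the groups overlapped and replicate 3 was lower after CpG. Sdhb changed by 1.02 ± 0.26 (adjusted p = 0.00494, edgeR, against 0.995 without the block). Its Cast share went from 96.1%, 92.1% and 38.7% to 96.8%, 98.4% and 52.3%. Among the 5 members with the smallest p without the block, Cox11, Uqcrh and Ndufb7 were called in neither fit.

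On the X chromosome, Ndufb11, an accessory subunit of complex I, was the 1 member with enough reads to test. Its active 129 allele had 348, 319 and 378 reads and then 663, 703 and 674 reads, or 150, 133 and 190 CPM and then 238, 249 and 235 CPM (log2 fold change 0.62 ± 0.15, adjusted p = 0.00909, edgeR). Its inactive Cast allele had 2, 6 and 5 reads and then 13, 12 and 14 reads (1.22 ± 0.49, adjusted p = 0.0529, edgeR), with stimulated reads above naive ones in all samples. On Cast it passed the read filter through its stimulated samples alone, so that difference is not independent of the filter. Over the alternatives run the Cast adjusted p stayed between 0.0516 and 0.172 in fits of the Cast allele alone.

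The Cast share of Ndufb11 was 0.571%, 1.85% and 1.31% in naive cells and 1.92%, 1.68% and 2.03% after CpG, and the groups overlapped. Single-sample 95% Wilson intervals, which cover counting error only, ran from 0.157% to 2.06% in naive replicate 1 and from 1.22% to 3.39% in CpG replicate 3. The means were 1.24% ± 0.640 and 1.88% ± 0.182 (SD, n = 3; two-sided exact permutation p = 0.2, where 0.1 is the smallest possible). The test of the ratio change gave 0.61 ± 0.34 (adjusted p = 0.685, edgeR), and no change of the allelic share was called. Over all matched X-linked genes other than Xist, Cast reads made up 6.60% ± 1.02 before and 9.23% ± 0.311 after CpG (exact permutation p = 0.1), and over autosomal members 53.9% ± 0.380 and 54.2% ± 1.02 (exact permutation p = 0.7). In the authors' deposited table of 104 X-linked genes, Ndufb11 was the 1 member listed, with a ratio of inactive to active X of 0.0106 in naive and 0.0169 in stimulated cells and mean RPKM values of 174 and 265.

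Cox7b, a complex IV subunit, had 4, 1 and 5 reads and then 10, 1 and 12 reads from the 129 allele, and 0, 0 and 0 and then 0, 1 and 2 reads from Cast. Ndufa1, which complex I needs for its assembly, had 0 reads on both alleles in every sample. Neither gene was tested, and 10 reads in a sample leave a Cast share of up to 30% possible where 0 Cast reads were counted.

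Genes that feed or serve the respiratory chain were read from lists beside the members. Of all genes tested, 28.2% were called higher and 27% lower on 129, and 30.7% and 31.5% on Cast. For the citric acid cycle and pyruvate dehydrogenase, 14 of 16 genes rose on 129 and 13 of 16 on Cast, with none lower. Idh3a, the catalytic subunit of NAD-dependent isocitrate dehydrogenase, rose by 2.32 ± 0.16 on 129 and 2.30 ± 0.14 on Cast, and Dlat, of pyruvate dehydrogenase, by 1.47 ± 0.50 and 1.21 ± 0.14. On 129 Dlat had 4, 12 and 3 reads and then 21, 24 and 21. It passed the read filter there through its stimulated samples, so its 129 rise is not independent of the filter. Citrate synthase (Cs) rose by 1.40 ± 0.12 and 1.49 ± 0.15. In a list of ATP export and mitochondrial membrane transport, 5 of 7 genes rose and 1 fell on 129, and 3 of 5 rose and 2 fell on Cast. That list holds carriers, channels and Atpif1, which is not a carrier. Slc25a5, an X-linked ADP/ATP carrier, rose by 2.19 ± 0.14 on 129, and Slc25a4, another ADP/ATP carrier, by 1.84 ± 0.24. Vdac1, a channel of the outer membrane, rose by 1.78 ± 0.15 and 2.13 ± 0.14, and Vdac2, another such channel, by 1.18 ± 0.12 and 1.17 ± 0.15. The phosphate carrier Slc25a3 had -0.20 ± 0.10 on 129 (not called) and fell by 0.78 on the log2 scale on Cast. Ucp2, an uncoupling family protein, fell by 0.55 on the log2 scale on 129 and by 0.68 on Cast.

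Assembly factors outside the naming rule had 12 of 27 higher and 0 lower on 129 and 16 of 25 higher and 1 lower on Cast. Tmem70, needed for ATP synthase assembly, rose by 1.35 ± 0.15 and 1.82 ± 0.18. Foxred1, of complex I assembly, rose by 1.21 ± 0.30 on 129 and had 0.16 ± 0.27 on Cast (not called), and Lrpprc, which stabilises mitochondrial messenger RNA, rose by 1.04 ± 0.10 and 1.30 ± 0.11. Surf1, of complex IV assembly, had -0.31 ± 0.12 on 129 (not called) and -0.45 ± 0.14 on Cast. For electron carriers and ubiquinone synthesis, 7 of 14 rose and 3 fell on 129 and 7 of 15 rose and 1 fell on Cast. Beside these lists, 28.2% of all genes were called higher and 27% lower on 129, and 30.7% and 31.5% on Cast. Coq7, a hydroxylase late in ubiquinone synthesis, rose by 2.34 ± 0.59 and 2.04 ± 0.42, and Coq4 by 2.24 ± 0.52 on 129 (Cast 0.97 ± 0.64, not called). On 129 Coq4 had 1, 5 and 3 reads in naive samples and 20, 18 and 17 after CpG. It passed the read filter through its stimulated samples, so that rise is not independent of the filter. Pdss1, which makes the ubiquinone side chain, rose by 1.88 ± 0.27 and 2.05 ± 0.40. Coq8a, an atypical kinase of the same pathway, fell from 134 to 21.5 CPM on 129 (-2.64 ± 0.22) and by 3.04 on the log2 scale on Cast. Coq10a fell by 1.33 on 129, from at most 28 reads per sample, and had -0.55 ± 0.51 on Cast (not called).

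Regulators of mitochondrial biogenesis and mitochondrial DNA expression had 6 of 14 higher and 2 lower on 129 and 3 of 14 higher and 2 lower on Cast, beside 28.2% of all genes called higher on 129 and 30.7% on Cast. Tfb1m, a mitochondrial ribosomal RNA methyltransferase, rose by 1.15 ± 0.28 on 129 (Cast 0.06 ± 0.36, not called), and Peo1, the mitochondrial helicase, by 0.99 ± 0.28 on 129 and 1.29 ± 0.21 on Cast. Pprc1, a coactivator, rose by 0.70 ± 0.16 and 0.88 ± 0.14. Polg2, the accessory subunit of the mitochondrial polymerase, fell by 0.83 and 1.32, and Esrra, a nuclear receptor, by 0.81 and 1.20. Nrf1 itself had -0.02 ± 0.35 on 129 and 0.05 ± 0.19 on Cast. The 13 mitochondrially encoded subunits were not analysed here, since the 1 name found, mt-Nd6, is placed on chromosome 4 in the files.

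Other X-linked mitochondrial genes had 8 of 16 higher and 3 lower on 129, and 1 of 3 higher on Cast. Among all X-linked genes tested, 111 of 316 were called higher and 74 lower on 129, and 44 of 96 higher and 10 lower on Cast, with median log2 fold changes of 0.17 and 0.76. With few reads on the inactive X, a gene can pass the read filter through 1 group alone. Apoo and Ndufb11 passed it on Cast through their stimulated samples. The Cast counts and median therefore depend in part on that filter. Beside Slc25a5, the rises on 129 included Apoo (1.69 ± 0.36), Hccs, which attaches heme to cytochrome c (1.60 ± 0.14), Apool (1.38), Fundc2 (0.92), Hsd17b10 (0.56) and Pdha1 (0.52). Alas2, the erythroid heme synthesis enzyme, fell by 5.55 there, Slc25a53 by 1.47 and Taz by 1.28. Idh3g (0.14), Timm17b (0.31), Mtcp1 (-0.28), Slc25a14 (0.68) and Aifm1 (-0.81) were not called. On the inactive X, Apoo rose by 1.97 ± 0.47 (adjusted p = 0.00511, edgeR) from 4, 2 and 4 reads to 17, 19 and 15 reads, with naive reads near the floor of 3. It rose on the active 129 allele as well, and a change of its allelic ratio is not reported here. Pdha1 (0.78 ± 0.49) and Idh3g (-0.06 ± 0.43) were not called on the inactive X.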

How the data were processed

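RNA-seq (TRIzol, stranded total RNA kit, per the labels) was read from deposited tables of 6 samples, 3 naive and 3 CpG. Each sample had a table of read counts per gene for the 129S1/SvImJ and for the CAST/EiJ annotation, deposited as whole numbers with no normalization. STAR, featureCounts, Subread 2.0.0 and mm10 are named, without a role, per the submitters' processing notes, and the tables end in rows as htseq-count writes them. How a read was given to a strain is not given in the sources used here. The authors' deposited table of X-linked genes holds group mean RPKM, a scaled score per allele called SRPM, and the ratio of inactive to active X, per the file headers.

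Summary rows were left out, and the no-feature row held 44.5% to 67.1% of aligned reads. In the 129 tables it held 62.6%, 65.2% and 67.1% in naive samples and 56.7%, 48.1% and 52.8% after CpG. In the Cast tables it held 57.9%, 62.1% and 60.9%, then 52.3%, 44.5% and 48.4%. Naive samples were thus above all stimulated ones, and the part of this difference in the results was not tested. Genes were tested with edgeR 4.0.16 in R 4.3.3 (quasi-likelihood, TMM, filterByExpr, adjusted p under 0.05), per allele and as an allele by CpG term over 28374 genes matched by name and chromosome, at a minimum of 10 reads, alleles together, in 3 samples. DESeq2 1.42.0 and other settings served as alternatives. CPM values are scaled by TMM-adjusted library sizes. Standard errors come from the F statistic. On simulated counts with log2 changes of 1 and 2, the 129 response fit recovered 78.8% and 99% of changed genes, the Cast fit 78% and 100%, and the allele by CpG fit 24% and 95%. Changes were placed only in genes at or above a minimum of reads. The simulated samples had 1 fixed spread, equal alleles and no allelic shares tied to replicate number. Recovery for members with fewer reads or with such shares was not tested.

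Replicate numbers from the titles were checked as pairs. Deviations from group means correlated between same-numbered samples at 0.443 to 0.608 in the 129 tables and 0.163 to 0.246 in the Cast tables, each above 0.1, so the numbers were taken to pair the samples. That pairing comes from the data and not from the labels. The main fits and the p-values printed without mention of the replicate number do not use it. It enters only where the replicate block is named.

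Genes named were all X-linked members, the 2 largest rises and falls per complex among called 129 members with a mean of at least 20 reads, the 5 smallest allele by CpG p-values, isoform families, and the 2 largest rises and falls per pathway list on each allele. Others (such as Ndufaf4, Uqcr11, Uqcrc2, Sdhc and the members with a replicate-linked allele split) were chosen after their values were seen. A gene that this rule selects is not reported here. Members and lists were chosen with earlier results of these data known. Intervals are 95% Wilson intervals, and a floor is 3 reads. Both cover counting error only.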

Additional observations from a re-analysis of the deposited data

Results flagged for a closer look

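The CpG response of Atp5sl differed between the parental alleles by a test of the difference itself: the Cast-to-129 ratio changed by 1.16 on the log2 scale (SE 0.12, adjusted p = 0.0123, edgeR's quasi-likelihood test), with the Cast share higher in 3 of 3 stimulated samples. It is the 1 such result among the members without the replicate block.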

How the results depend on the processing

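With replicate number as a block, all members called in the response fits kept their call and 57 were higher on each allele, and on 129 the block added Atp5e, Cox19, Cox6a1, Ndufa12, Ndufa13, Ndufa3, Ndufaf5, Ndufaf7, Ndufc2, Sdha, Sdhc and Uqcrb, and on Cast Cox7c, Ndufv1, Sdhb and Uqcrb. In the allele by CpG test the block raised the count from 95 to 779 genes and from 1 to 4 members, and with each allele's own library size as well, an alternative chosen after seeing the data, to 763 genes and 4 members. For the Ndufb11 Cast share the block gave a change of 0.638 points (sign-flip p = 0.5, exact, where 0.25 is the smallest possible). Of 49 members called on 129, 37 were called under all 14 alternatives, and of 56 on Cast, 45. Members called lower numbered 2 on 129 at a minimum of 50 reads, which tests fewer genes, and on Cast 5 under upper quartile scaling and 5 with the alleles summed. Upper quartile scaling moved the median of all genes to -0.16 (129) and -0.17 (Cast) and that of members to 0.84 on both, and DESeq2 moved the former to -0.19 and -0.20. Leaving out 1 sample in turn gave 5216 to 5477 genes, 42 to 44 members higher and 3 to 4 lower on 129, 5987 to 6319, 51 to 54 and 2 to 4 on Cast, and 14 to 26 genes and 0 to 1 members in the allele by CpG test, where fewer samples were fitted. The Ndufb11 share change ranged from 0.303 to 0.940 points. Signs turned for values that were not called, and the cause was not tested: Uqcrh on Cast was 0.0144 without normalization factors, 0.0114 with DESeq2, 0.0581 without a filter and -0.12 to 0.18 leaving out samples, and Cox11 was 0.19 with the alleles summed. Leaving out samples, the ratio change ranged from -0.0317 to 0.0515 for Atp5b, -0.0762 to 0.96 for Atp5g1, -0.16 to 0.00417 for Cox4i1, -0.20 to 0.14 for Cox5a, -0.88 to 0.27 for Cox6a1, -0.63 to 0.40 for Cox7a2, -0.0262 to 0.13 for Cox7a2l, -0.0992 to 0.0515 for Ndufa4, -0.12 to 0.11 for Ndufa5, -0.34 to 0.42 for Ndufa7, -0.72 to 0.70 for Ndufaf2 and -0.23 to 0.0180 for Uqcr10. Too few reads left 24 members on 129 and 19 on Cast untested, and Ndufb11 had at most 14 reads per sample from the inactive X.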
